A study of Homo sapiens with 28 samples.

Results

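The genes described are 10 that mark or drive the switch between epithelial and mesenchymal cell states: EPCAM, CDH1, CDH2, VIM, FN1, SNAI1, SNAI2, ZEB1, ZEB2 and TWIST1. They were found by their symbol in a table of 18961 human amplicons, in which each had a single row. The study grew 4 human liver tumour lines as grafts on the chorioallantoic membrane of chick eggs (in ovo) and in culture dishes (in vitro), with 4 in ovo and 3 in vitro libraries per line. HepG2 came from a hepatoblastoma, while PLC/PRF/5, Hep3B and HuH7 were derived from carcinomas of the liver. The labels name no drug and no genetic change in any of the 28 libraries. Grafting was done on embryonic day 9 and the nodules were taken on day 18. The labels do not tell if replicates were separate dishes and eggs. The p-values therefore describe only the spread among libraries, part of which may be technical. RNA was purified on different column kits for tumours and cultures, so kit and condition cannot be told apart.

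Epithelial cells are held together by E-cadherin, the product of CDH1, and carry EpCAM, the adhesion molecule encoded by EPCAM. In the epithelial-mesenchymal transition these are lost while N-cadherin (CDH2), the intermediate filament vimentin (VIM) and the matrix protein fibronectin (FN1) are gained. Transcription factors of the Snail (SNAI1, SNAI2), ZEB (ZEB1, ZEB2) and Twist (TWIST1) families repress CDH1 and drive the change. In liver the picture has its own features, because normal hepatocytes express both E-cadherin and N-cadherin, secrete plasma fibronectin and lack EpCAM, which is regained in progenitor cells and some tumours.

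Libraries held 6085750 to 15086465 reads in the 16 tumours and 6205368 to 8662998 in the 12 cultures. Levels are given as CPM (a library's reads brought to a common total and then scaled by TMM, which corrects for composition), and 3 reads before that scaling stood for 0.199 to 0.493 CPM in tumours and 0.346 to 0.483 CPM in cultures. All 10 genes passed the read filter, which retained 13100 amplicons over the 8 groups together. Every library was nearest to its own group, and no 2 replicates were alike enough to be 1 library. In HepG2, Hep3B and HuH7 the in ovo library numbered 3 had the lowest TMM factor of its group, 0.707, 0.447 and 0.776, and several results below are therefore given without the 4 libraries of that number. The 10 hepatocyte markers examined, among them albumin and HNF4A, summed to 130000 to 248000 CPM in HepG2 tumours and 93400 to 100000 CPM in HepG2 cultures, and to 184000 to 315000 CPM in Hep3B tumours and 40800 to 42900 CPM in Hep3B cultures. In HuH7 they summed to 4610 to 7510 CPM in tumours and 14400 to 14900 CPM in cultures, the line with lower sums in tumours. In PLC/PRF/5 they summed to 686 to 1890 CPM in tumours and 24.1 to 30.5 CPM in cultures, where 2 were at 0 in each library, so this line read hepatocyte markers at a low level. The sums rest on the markers with the most reads. In HepG2 albumin had 3.94 to 44.4 CPM in tumours and 18.7 to 24.7 CPM in cultures, and APOA2 3750 to 5250 and 11600 to 12300 CPM. By the limma test described below, 3 of the 10 were higher and 1 lower in HepG2 tumours, where 25.1% of all genes were called in either direction. Markers of other cells summed to 8.74 to 63.9 CPM in tumours and 4.35 to 49 CPM in cultures for endothelium, to 6.24 to 65.2 CPM in tumours and 31.7 to 401 CPM in cultures for leukocytes, and to at most 11.1 CPM in tumours and 18.9 CPM in cultures for stratified epithelium. Since tumours were read in bulk, fewer cells expressing a gene and less RNA per cell cannot be told apart.

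Each level rests on a single amplicon, the stretch of messenger RNA that the targeted kit reads. All 10 amplicons lie in coding sequence of GRCh38, by exact match to GENCODE release 29 transcripts. That of CDH1 joins exons 9 and 10 (chr16:68813379-68815629, plus strand) and that of VIM joins exons 5 and 6 (chr10:17234725-17235304, plus strand). The other 8 lie within 1 exon. The amplicons of CDH1 and CDH2 are shown because the cadherin comparison rests on them, and capitals in CDH1 mark the bases of exon 10. That of CDH2 lies in exon 15 (chr18:27963394-27963513, minus strand).
CDH1: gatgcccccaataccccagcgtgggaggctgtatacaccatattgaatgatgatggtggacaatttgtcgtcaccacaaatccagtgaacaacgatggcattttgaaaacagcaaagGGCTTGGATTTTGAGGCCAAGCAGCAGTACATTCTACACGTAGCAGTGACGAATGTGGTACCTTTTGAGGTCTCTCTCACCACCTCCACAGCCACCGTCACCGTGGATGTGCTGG
CDH2: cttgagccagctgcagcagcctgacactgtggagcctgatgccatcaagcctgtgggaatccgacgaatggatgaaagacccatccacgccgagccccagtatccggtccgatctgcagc
Those of FN1, SNAI1 and TWIST1 are shown as the only gene of the 10 called lower in HepG2, a Snail factor that moved both ways, and the factor read mainly in PLC/PRF/5. FN1 is read in exon 29 (chr2:215384070-215384184, minus strand), SNAI1 in exon 3 (chr20:49987933-49988047, plus strand) and TWIST1 in exon 1 (chr7:19116755-19116839, minus strand).
FN1: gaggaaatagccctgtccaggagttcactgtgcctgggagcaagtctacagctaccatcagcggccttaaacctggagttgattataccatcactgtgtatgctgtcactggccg
SNAI1: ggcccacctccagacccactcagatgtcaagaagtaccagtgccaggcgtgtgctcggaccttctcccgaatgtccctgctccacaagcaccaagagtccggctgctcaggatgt
TWIST1: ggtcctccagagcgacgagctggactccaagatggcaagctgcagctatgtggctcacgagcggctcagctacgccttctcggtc
The remaining amplicons are those of EPCAM in exon 3 (chr2:47373842-47373995), ZEB1 in exon 7 (chr10:31521716-31521894), ZEB2 in exon 8 (chr2:144399133-144399326) and SNAI2 in exon 3. Aligned to each other, the SNAI1 and SNAI2 amplicons shared 81 of 118 columns (68.6%), and no amplicon of the 10 matched a transcript of another gene.

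The switch genes did not move as a block, and no line shifted all of its epithelial genes down and all of its mesenchymal genes up. In HuH7 tumours CDH2 and, at the threshold, VIM rose while SNAI1 and SNAI2 fell. In Hep3B tumours SNAI1, SNAI2 and ZEB1 rose while CDH2, VIM and EPCAM fell. PLC/PRF/5 tumours had more SNAI2 and TWIST1 and less CDH2 and SNAI1, and HepG2 tumours had more SNAI2 and less FN1. Limma on log2(CPM + 1), with adjusted p under 0.05 as the threshold, called 2 of the 10 genes in HepG2 (1 higher, 1 lower), beside 25.1% of all genes tested. It called 6 in Hep3B (3 higher, 3 lower; 52% of all genes), 4 in HuH7 (2 and 2; 43.4%) and 4 in PLC/PRF/5 (2 and 2; 17.5%). By direction, 12.1% of all genes were higher and 13% lower in HepG2, against 24.6% and 27.4% in Hep3B, 23.6% and 19.8% in HuH7, and 11.9% and 5.61% in PLC/PRF/5. Over the 10 genes the median log2 fold change in ovo over in vitro was 0.00 for HepG2, 0.27 for Hep3B, -0.01 for HuH7 and 0.12 for PLC/PRF/5, beside -0.01, -0.05, 0.01 and 0.07 over all genes. The median size of the change regardless of sign was 0.40, 0.96, 0.33 and 0.60, in that order of lines, beside 0.44, 0.71, 0.61 and 0.36 over all genes.

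**Figure D1:**
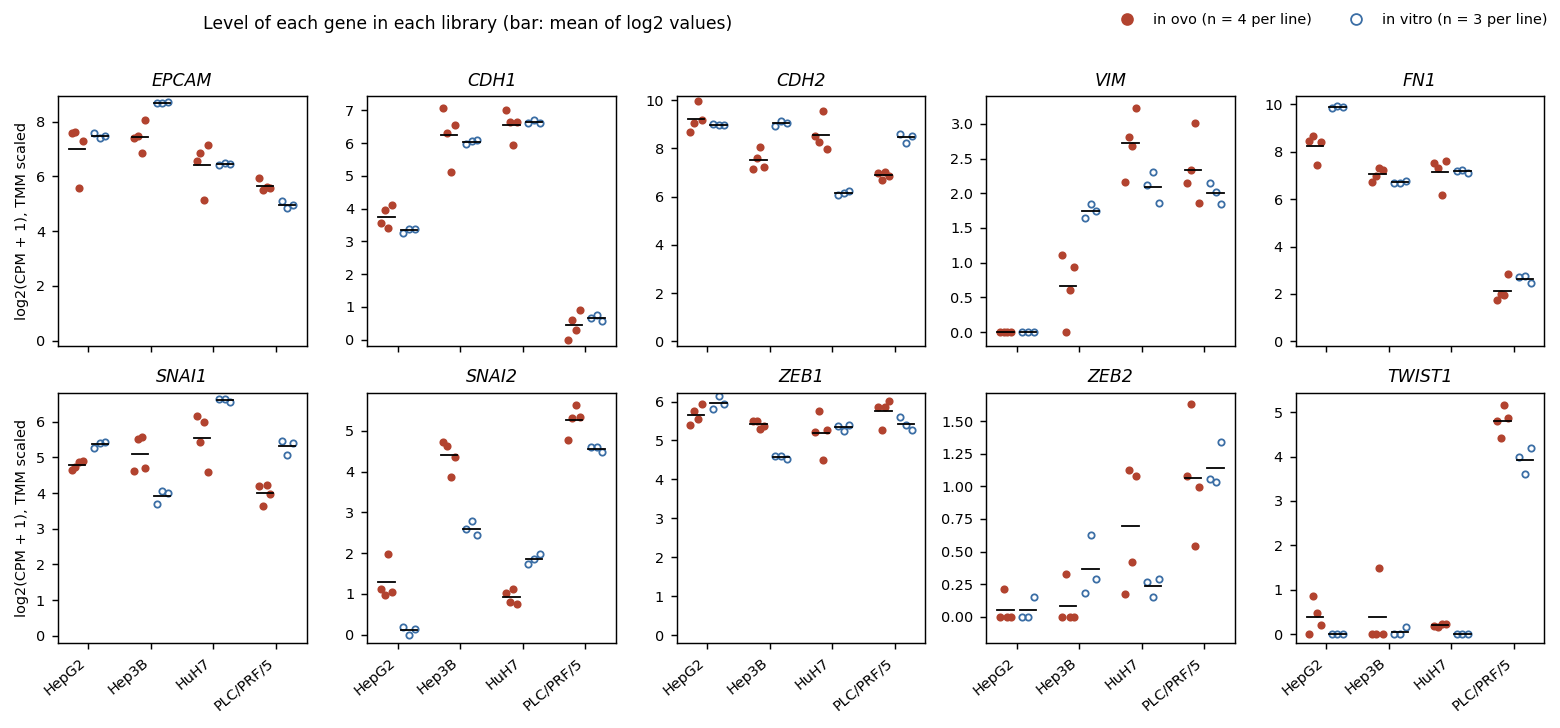
Level of each of the 10 genes in each library, as log2(CPM + 1) after TMM scaling, by line, with in ovo libraries (filled, 4 per line) left of in vitro libraries (open, 3 per line) and bars at the group mean of the log2 values. CDH2 in HuH7 tumours lies above all HuH7 cultures, TWIST1 is high in PLC/PRF/5 only, and VIM is at 0 in all 7 HepG2 libraries.

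CDH2, which encodes N-cadherin, gave the widest contrast between lines. It rose 5.88-fold in HuH7 tumours and fell 2.81-fold in Hep3B tumours and 2.97-fold in PLC/PRF/5 tumours, by the ratio of group means. HuH7 tumours had 362, 307, 745 and 249 CPM, against 66.8, 70.7 and 74.7 CPM in HuH7 cultures. The lowest tumour was thus above every culture, and the third tumour stood well above the other 3. The log2 fold change was 2.41 ± 0.29 (SE; limma, adjusted p = 4.27e-07), and 2.08 without that tumour. Hep3B tumours had 140, 194, 268 and 147 CPM, against 490, 554 and 534 CPM in Hep3B cultures, a log2 change of -1.53 ± 0.29 (limma, adjusted p = 0.000113). CDH2 in PLC/PRF/5 tumours stood at 124, 102, 130 and 115 CPM, against 391, 296 and 368 CPM in PLC/PRF/5 cultures, with a log2 change of -1.57 ± 0.29 (limma, adjusted p = 0.000291). In all 3 lines the groups were separate. HepG2 tumours had 413, 529, 996 and 578 CPM, against 511, 506 and 497 CPM in HepG2 cultures. These groups overlapped, and the log2 change of 0.24 ± 0.29 (95% interval -0.35 to 0.83; limma, adjusted p = 0.589) rested on the third tumour, being -0.01 without it. None of the 3 CDH2 calls was lost in any alternative run.

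In tumours all 4 lines were told apart by CDH2, while in cultures only HuH7 was told apart from the others. In tumours the order was HepG2 (629 ± 255), HuH7 (416 ± 224), Hep3B (187 ± 59.3) and PLC/PRF/5 (118 ± 12.3; SD, n = 4 each), and all 6 pairs passed. For HepG2 tumours 50.3% of all genes were called against Hep3B, 52.7% against HuH7 and 55.5% against PLC/PRF/5, and the shares were 48.9% for Hep3B against HuH7, 66.5% for Hep3B against PLC/PRF/5 and 63.7% for HuH7 against PLC/PRF/5. The neighbours HepG2 and HuH7 were closest to the threshold (log2 difference 0.65, limma, adjusted p = 0.0417), with Hep3B and PLC/PRF/5 (0.62, adjusted p = 0.0425). In cultures the order was Hep3B (526 ± 32.9 CPM), HepG2 (504 ± 7.26), PLC/PRF/5 (351 ± 49.4) and HuH7 (70.8 ± 3.97; SD, n = 3 each). Only the 3 pairs with HuH7 passed the limma test, where 44.6%, 34% and 49.1% of all genes were called against HepG2, Hep3B and PLC/PRF/5. In the pairs that did not pass for CDH2, 40% of all genes were called between HepG2 and Hep3B, 50.9% between HepG2 and PLC/PRF/5 and 46.5% between Hep3B and PLC/PRF/5. Fibroblasts also carry N-cadherin. Those of the host would be chick cells, and whether the human amplicons read chick RNA was not tested. Fibroblast markers summed to 553 to 864 CPM in HuH7 tumours and 353 to 372 CPM in HuH7 cultures. Of 9 such markers 6 could be tested, of which 3 were higher and 1 lower. PDGFRA, a growth factor receptor, was the largest part in tumours, at 444 to 732 CPM in tumours and 151 to 164 CPM in cultures. The collagen gene COL1A1 had 21.6 to 90.9 CPM in HuH7 tumours and 1.86 to 2.02 CPM in HuH7 cultures, and lumican (LUM) had 9.95 to 39.5 CPM in tumours and 196 to 204 CPM in cultures. Of the others, COL1A2 had 2.36 to 19.7 CPM in tumours and 1.43 to 2.43 CPM in cultures, COL3A1 reached 0.645 CPM in tumours and 0.33 CPM in cultures, and PDGFRB reached 0.43 CPM in tumours and 1.21 CPM in cultures. THY1 and POSTN were at 0 in all HuH7 libraries, and DCN had at most 1 read in a tumour and 0 in cultures. In Hep3B, where CDH2 fell, the 9 markers summed to 275 to 508 CPM in tumours and 104 to 106 CPM in cultures. The part of fibroblast markers in the CDH2 values was not tested.

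CDH1, which encodes E-cadherin, was set by the line and not called in any. HuH7 tumours had 127, 99.6, 60.7 and 98.8 CPM, against 96.7, 104 and 96.8 CPM in HuH7 cultures, so the cultures lay within the range of the tumours. Hep3B tumours spread from 33.9 to 134 CPM (77.6 and 92.2 between), against 61.5, 65.5 and 67.1 CPM in Hep3B cultures. HepG2 tumours had 10.7, 14.6, 9.66 and 16.3 CPM, against 8.60, 9.50 and 9.34 CPM in HepG2 cultures, all tumours above all cultures by a small margin. In PLC/PRF/5 the gene was nearly silent, with 0 to 8 reads in tumours and 4 to 7 reads in cultures. The log2 fold changes were 0.42 for HepG2 (95% interval -0.22 to 1.05), 0.22 for Hep3B (-0.41 to 0.86), -0.08 for HuH7 (-0.72 to 0.55) and -0.21 for PLC/PRF/5 (-0.84 to 0.43), with limma adjusted p of 0.349, 0.569, 0.86 and 0.73. The intervals still hold changes as large as 1.05 in HepG2 and -0.84 in PLC/PRF/5. The result depended on the libraries, on scaling and on amplicon properties. With trends of amplicon GC content and length removed, CDH1 was called higher in Hep3B tumours (1.38, limma, adjusted p = 5.59e-05), HepG2 tumours (0.91, adjusted p = 0.00495) and HuH7 tumours (0.66, adjusted p = 0.031). Without the in ovo libraries numbered 3, CDH1 was higher in HepG2 tumours (0.58, limma, adjusted p = 0.0334) and Hep3B tumours (0.55, adjusted p = 0.0264), whereas scaling by total reads alone gave -0.73 in Hep3B (adjusted p = 0.114).

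N-cadherin and E-cadherin reads were also compared within each library. The log2 ratio of CDH2 to CDH1, with 1 CPM added to each, averaged 2.01 ± 1.06 in HuH7 tumours and -0.48 ± 0.10 in HuH7 cultures (SD, n = 4 and n = 3). E-cadherin reads thus outnumbered N-cadherin reads in HuH7 cultures and not in any HuH7 tumour, the lowest of which was at 1.32. Hep3B went the other way, with 1.24 ± 1.25 in tumours and 3.00 ± 0.05 in cultures. PLC/PRF/5 tumours averaged 6.44 ± 0.49 and PLC/PRF/5 cultures 7.80 ± 0.28, values that rest on 0 to 8 CDH1 reads per library, where the 1 CPM added exceeds the CDH1 level. HepG2 tumours averaged 5.46 ± 0.72 and HepG2 cultures 5.64 ± 0.08, with overlap. The reads of the amplicons are not corrected for amplification, so the ratio compares libraries and is no count of molecules.

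**Figure D2:**
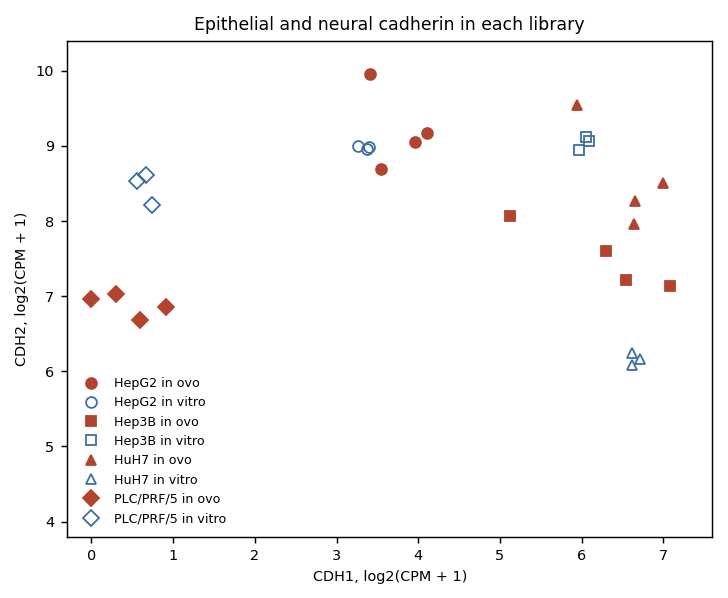
CDH2 against CDH1 in each library, both as log2(CPM + 1), with filled marks for in ovo and open marks for in vitro libraries and 1 shape per line. HuH7 tumours (filled triangles) lie above HuH7 cultures at like CDH1, while Hep3B and PLC/PRF/5 tumours lie below their cultures.

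EPCAM, which marks hepatic progenitors and some liver tumours, fell in Hep3B alone among the 4 lines tested. Hep3B tumours had 169, 176, 116 and 263 CPM, against 411, 409 and 423 CPM in Hep3B cultures, 2.29-fold lower (log2 -1.25 ± 0.40 SE; limma, adjusted p = 0.0108). The highest tumour stayed below the lowest culture. PLC/PRF/5 tumours had 60.8, 43.9, 47.6 and 46.8 CPM, against 33.1, 27.5 and 29.8 CPM in PLC/PRF/5 cultures. These groups did not overlap either, but the log2 change of 0.70 ± 0.40 missed the threshold (limma, adjusted p = 0.246). It passed without the libraries numbered 3 (0.72, limma, adjusted p = 0.00243) and with the line fitted alone (0.62, adjusted p = 0.0138). In HepG2 the tumours had 191, 194, 46.3 and 157 CPM, against 189, 168 and 178 CPM in cultures, and in HuH7 the tumours had 92.7, 116, 34.2 and 140 CPM, against 83.5, 88.2 and 86.9 CPM in cultures. In both of these lines the third tumour was the lowest, and the log2 changes of -0.47 and -0.02 became 0.07 and 0.40 without the libraries numbered 3. The fall in Hep3B differed from the value in PLC/PRF/5 (log2 difference -1.95 ± 0.56; limma, adjusted p = 0.0119), and the other 5 pairs of lines were not told apart. Cultures ranked Hep3B, HepG2, HuH7 and PLC/PRF/5, and all 6 pairs of cultures differed, beside 34% to 50.9% of all genes called in these pairs.

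Vimentin reads were few in every line. VIM, the vimentin gene, had 0 reads in all 4 HepG2 tumours and all 3 HepG2 cultures, and no library of any line passed 8.40 CPM. Because no library here read VIM at a high level, the sensitivity of its amplicon was not tested. Hep3B tumours had 1.17, 0, 0.518 and 0.925 CPM, against 2.11, 2.59 and 2.34 CPM in Hep3B cultures, or 17 reads in all against 56. That fall passed (log2 -1.07 ± 0.25 on the log2(CPM + 1) scale, which understates low genes; limma, adjusted p = 0.00123), but was -0.14 (adjusted p = 0.7) once trends with amplicon GC content and length were removed. HuH7 tumours had 3.47, 6.02, 5.39 and 8.40 CPM, against 3.34, 3.95 and 2.64 CPM in HuH7 cultures. These overlapped and lay at the threshold (0.62 ± 0.25; limma, adjusted p = 0.0494), and edgeR's quasi-likelihood test gave an adjusted p of 0.136. Tumours of PLC/PRF/5 had 2.64 to 7.03 CPM, against 2.59 to 3.42 CPM in PLC/PRF/5 cultures, with no call.

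FN1, which encodes the fibronectin that hepatocytes secrete, fell 2.98-fold in HepG2 tumours. They had 349, 403, 175 and 342 CPM, against 909, 971 and 956 CPM in HepG2 cultures (log2 -1.64 ± 0.29; limma, adjusted p = 0.000146). The highest tumour was far below the lowest culture, and without the libraries numbered 3 the call held. Hep3B tumours had 105, 125, 160 and 147 CPM, against 103, 101 and 109 CPM in Hep3B cultures, and HuH7 tumours had 184, 159, 72.0 and 193 CPM, against 145, 148 and 136 CPM in HuH7 cultures. Neither was called (log2 0.34 and -0.01), and the value in Hep3B turned to -0.62 (adjusted p = 0.158) with total reads alone. PLC/PRF/5 read far less, at 2.33, 3.02, 2.83 and 6.26 CPM in tumours and 5.58, 5.73 and 4.48 CPM in cultures. The change in HepG2 differed from that in Hep3B (log2 difference -1.98 ± 0.41; limma, adjusted p = 0.000846) and in HuH7 (-1.63 ± 0.41, adjusted p = 0.005), and was not told apart from that in PLC/PRF/5 (-1.13 ± 0.41, adjusted p = 0.0656).

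SNAI2, which encodes Slug, was the factor called in each of the 4 lines. It rose in tumours of Hep3B, HepG2 and PLC/PRF/5 and fell in those of HuH7. Hep3B tumours had 25.6, 23.9, 13.5 and 19.6 CPM, against 5.01, 5.86 and 4.45 CPM in Hep3B cultures, 4.03-fold higher (log2 1.79 ± 0.24; limma, adjusted p = 1.96e-06). Tumours of PLC/PRF/5 had 26.2, 38.6, 48.9 and 39.7 CPM, against 23.5, 23.3 and 21.3 CPM in PLC/PRF/5 cultures (log2 0.70 ± 0.24, adjusted p = 0.0472). All tumours of both lines were above their cultures, the second by a narrow margin and with a call that edgeR's test did not make (adjusted p = 0.0763). HuH7 tumours had 1.03, 0.753, 1.18 and 0.686 CPM, against 2.33, 2.63 and 2.97 CPM in HuH7 cultures (log2 -0.93 ± 0.24; limma, adjusted p = 0.00363), at 7 or 8 reads per tumour. This call was lost with 5 CPM added (adjusted p = 0.0654) and with the GC and length trends removed (0.053). HepG2 had the fewest reads, 36 over 4 tumours and 2 over 3 cultures, with 1.19, 0.960, 2.96 and 1.08 CPM in tumours and 0.141, 0 and 0.111 CPM in cultures. The ratio of summed reads per depth was 17.7 (95% exact counting interval 4.57 to 152, which covers counting error only). On the log2(CPM + 1) scale it was 1.17 ± 0.24 (limma, adjusted p = 0.000726), and with 5 CPM added the call was lost (adjusted p = 0.111). Amplicons of olfactory receptors, which liver cells are not known to use, also had more reads in HepG2 tumours, where 5.63% to 51.7% of 391 had a read, against 3.07% to 4.09% in HepG2 cultures. The 95th percentile of their levels reached 0.96 CPM in a HepG2 tumour and was 0 in each HepG2 culture. The part of this in the SNAI2 value was not tested. The share with a read was also higher in tumours of the other lines. It was 12% to 34.5% in Hep3B tumours and 3.58% to 3.84% in cultures, and 20.7% to 31.2% in HuH7 tumours and 5.63% to 7.67% in cultures. PLC/PRF/5 had 11.3% to 45.5% in tumours and 2.05% to 3.58% in cultures.

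SNAI1, which encodes Snail, moved in opposite directions in different lines. It rose 2.46-fold in Hep3B tumours and fell 1.94-fold in HuH7 tumours and 2.54-fold in PLC/PRF/5 tumours. Hep3B tumours had 23.7, 44.3, 46.6 and 25.2 CPM, against 11.9, 15.7 and 15.1 CPM in Hep3B cultures (log2 1.18 ± 0.28; limma, adjusted p = 0.00106). HuH7 tumours had 70.7, 41.7, 63.0 and 23.2 CPM, against 97.6, 99.2 and 91.9 CPM in HuH7 cultures (log2 -1.06 ± 0.28; limma, adjusted p = 0.00374). SNAI1 in PLC/PRF/5 tumours stood at 17.5, 11.4, 17.7 and 14.7 CPM, against 42.9, 32.4 and 41.0 CPM in PLC/PRF/5 cultures (log2 -1.29 ± 0.28; limma, adjusted p = 0.00155). No tumour overlapped a culture in these 3 lines. HepG2 tumours were also all below their cultures, at 23.8, 25.4, 28.2 and 28.7 CPM, against 37.1, 41.4 and 42.0 CPM, but the log2 value of -0.58 ± 0.28 missed the threshold (limma, adjusted p = 0.128), which it passed with total reads alone (-0.81, adjusted p = 0.00182) and with GC and length trends removed (-0.74, adjusted p = 0.00412). The call in Hep3B was lost with total reads alone, which lowered the median of all genes in that line by 0.69 (0.25, adjusted p = 0.255), and with GC and length trends removed (0.46, adjusted p = 0.0535). The change in HepG2 minus that in Hep3B was -1.77 (limma, adjusted p = 0.00142), and Hep3B exceeded HuH7 by 2.24 and PLC/PRF/5 by 2.48 (adjusted p of 0.000112 and 4.02e-05). The other 3 pairs were not told apart.

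ZEB1 was read in every library at 21.6 to 69.2 CPM and rose in Hep3B tumours. These had 44.0, 44.6, 38.6 and 40.5 CPM, against 23.2, 23.3 and 22.0 CPM in Hep3B cultures, 1.83-fold higher (log2 0.84 ± 0.21; limma, adjusted p = 0.00183). With total reads alone the value was -0.10 (adjusted p = 0.771), so the direction in Hep3B follows the scaling. The other lines gave overlapping groups, with log2 values of -0.30 in HepG2, -0.16 in HuH7 and 0.32 in PLC/PRF/5. Hep3B had the lowest ZEB1 of the 4 lines in culture (22.9 ± 0.72 CPM, SD, n = 3), and differed there from each of the other 3. In those pairs 34% to 46.5% of all genes were called. ZEB2, its close relative, had at most 25 reads in any library and at most 2.10 CPM. It was not called in any line by limma. In HuH7 it had 0.129, 1.18, 0.337 and 1.11 CPM in tumours and 0.202, 0.110 and 0.220 CPM in cultures. The log2 value there was 0.47 (limma, adjusted p = 0.0757), and it was called with edgeR's test (1.95, adjusted p = 0.0445), with GC and length trends removed (1.26, adjusted p = 0.00119) and without the libraries numbered 3 (0.57, adjusted p = 0.0291). The 95th percentile of olfactory receptor amplicons was 0.386 to 0.927 CPM in HuH7 tumours and 0.101 to 0.11 CPM in HuH7 cultures. Its part in the ZEB2 value was not tested.

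TWIST1, a helix-loop-helix factor of mesoderm, was in practice a PLC/PRF/5 gene. PLC/PRF/5 tumours had 26.7, 20.3, 35.0 and 28.2 CPM, against 15.0, 11.2 and 17.2 CPM in PLC/PRF/5 cultures, 1.92-fold higher, and every tumour was above every culture. The log2 change was 0.88 ± 0.27 (limma, adjusted p = 0.0232), while edgeR's quasi-likelihood test (adjusted p = 0.258), DESeq2 (0.233), limma-voom (0.11) and limma with GC and length trends removed (0.143) did not call it. In the other 3 lines the 12 tumours held 0 to 7 reads each and the 9 cultures 0 or 1 read, too few for a fold. PLC/PRF/5 was also the line with the lowest CDH1 and the lowest FN1, and a link of either to TWIST1 was not tested.

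**Figure D3:**
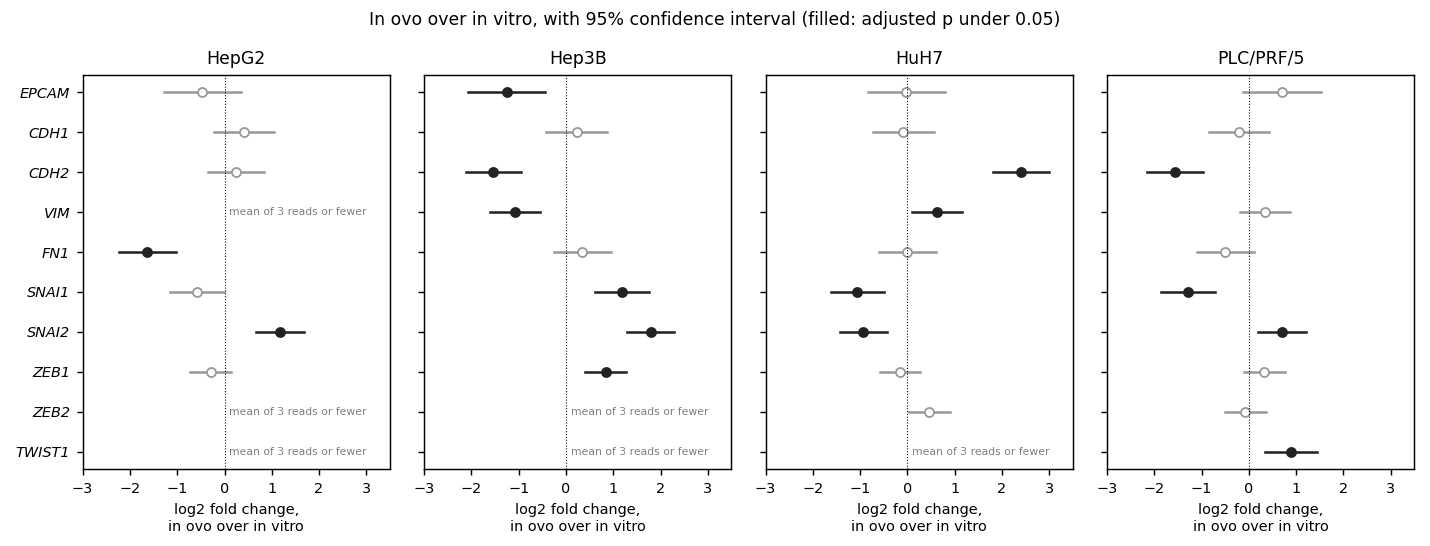
Log2 fold change of each gene, in ovo over in vitro, in each of the 4 lines, with its 95% confidence interval from limma. Filled marks passed an adjusted p under 0.05, open marks did not, and the grey words mark genes with a mean of 3 reads or fewer in both conditions. CDH2 lies at 2.41 in HuH7 and at -1.53 and -1.57 in Hep3B and PLC/PRF/5.

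Whether the change differed between lines was tested directly. The limma interaction test over the 4 lines called 7 of the 10 genes, beside 41.8% of all genes: CDH2, SNAI2, SNAI1, FN1, VIM, ZEB1 and EPCAM. Adjusted p ran from 2.54e-08 for CDH2 to 0.0379 for EPCAM. It did not call CDH1 (adjusted p = 0.575), TWIST1 (0.41) or ZEB2 (0.178). Among pairs of lines CDH2 differed in 5 of 6, all but Hep3B against PLC/PRF/5, where the same test called 23.7% of all genes for HepG2 against Hep3B, 21.6% for HepG2 against HuH7, 15.8% for HepG2 against PLC/PRF/5, 20.3% for Hep3B against HuH7, 25.9% for Hep3B against PLC/PRF/5 and 16.9% for HuH7 against PLC/PRF/5. The largest difference was between HuH7 and PLC/PRF/5 (log2 3.97 ± 0.40; limma, adjusted p = 7.13e-08). In the mean over the 4 lines SNAI2 (0.68) and TWIST1 (0.45) were higher and SNAI1 (-0.44) and FN1 (-0.45) lower, 4 calls of 10 beside 66.3% of all genes (33.7% higher and 32.6% lower). Those means hide opposite calls for both Snail factors. That of TWIST1 takes in HepG2, Hep3B and HuH7, where its reads were too few for a fold. CDH2, with the widest changes, averaged -0.11 and was not called.

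How much of each gene's spread lay between lines differed widely. Of the sum of squares of log2(CPM + 1) over the 28 libraries, lines held 97.7% for CDH1, 95.6% for TWIST1, 95.2% for FN1 and 87.1% for SNAI2. For CDH2 the lines held 35.2%, and the share that depended on line and condition together was 55.4%. For SNAI1 that share was 32.5% and for ZEB1 25.7%. CDH2 was also the gene with no close companion. By Pearson's r over the 28 libraries, among 7175 or 7176 genes averaging at least 10 CPM, its nearest were NTAN1 (0.735) and PHLDA1 (0.713). CDH1 was nearest to RPS6KB2 (0.98) and SOX6 (0.971), TWIST1 to HIST1H3G (0.988) and FZD10 (0.984), and FN1 to SRF (0.966) and TSPAN7 (0.964). SNAI2 was nearest to EFNA5 (0.948) and RPS26 (0.946), VIM to PRSS23 (0.943) and UNC119 (0.937), EPCAM to TNS3 (0.921) and SKI (0.918), and ZEB2 to MITF and BMP6 (0.856 each). SNAI1 was nearest to TINAGL1 (0.825) and PIR (0.814), and ZEB1 to P4HA1 (0.804) and ASXL2 (0.795). These libraries share 4 lines, so a gene high in the same line scores well, and no p is given.

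Genes that work beside the 10 were examined in 5 lists, whose counts stand beside the share of all genes called in each line. Of epithelial junction and identity genes, which hold cells together and fix epithelial splicing, 21 of 24 could be tested. In HuH7 tumours 8 rose and 1 fell, and PLC/PRF/5 had 5 that rose and 2 that fell. HepG2 had 2 that rose and 7 that fell, and Hep3B 2 and 8. Of all genes 23.6% were higher and 19.8% lower in HuH7, 11.9% and 5.61% in PLC/PRF/5, 12.1% and 13% in HepG2, and 24.6% and 27.4% in Hep3B. In HuH7 the 3 with the smallest p were ST14, which encodes the protease matriptase (33.1 CPM in tumours and 7.06 CPM in cultures), ESRP1, an epithelial splicing factor (4.00 and 0.709), and DSP, the desmosome protein desmoplakin (184 and 90.8). In the mean over lines SPINT1, an inhibitor of matriptase, was the gene that fell with the smallest p, and the E-cadherin partners CTNNB1 (beta-catenin) and CTNND1 (p120-catenin) fell too. Another partner, CTNNA1 (alpha-catenin), was not called in that mean (log2 0.01, limma, adjusted p = 0.924). CTNNB1 varied widely among tumours, with 12.9 ± 13.9 CPM in HuH7 tumours and 42.5 ± 3.98 CPM in cultures (SD, limma, adjusted p = 0.0103). It had 7.38 ± 5.59 CPM in Hep3B tumours and 31.7 ± 2.3 CPM in cultures (adjusted p = 0.00875). In HepG2 it had 16.2 ± 10.6 CPM in tumours and 52.5 ± 6.54 CPM in cultures (adjusted p = 0.0268). JUP (gamma-catenin), which can take the place of CTNNB1 in junctions, rose in the same 3 lines. It had 3170 ± 1980 CPM in HuH7 tumours and 619 ± 28.7 CPM in cultures (SD), a log2 change of 2.09 ± 0.51 (SE, limma, adjusted p = 0.00216). In Hep3B JUP had 4040 ± 3460 CPM in tumours and 790 ± 72.8 CPM in cultures. In HepG2 it had 1140 ± 655 CPM in tumours and 324 ± 31.1 CPM in cultures. In PLC/PRF/5 neither CTNNB1 (log2 -0.85) nor JUP (0.48) was called. The limma interaction test did not tell the lines apart for either (adjusted p of 0.528 and 0.201). The median log2 fold change of the 21 genes was -0.15 for HepG2, -0.30 for Hep3B, 0.21 for HuH7 and 0.04 for PLC/PRF/5. In Hep3B total reads alone gave 16 lower in place of 8.

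Of 14 mesenchymal state genes tested of 17, 8 fell in HepG2, where 13% of all genes did. HepG2 had 1 higher and 8 lower, Hep3B 3 and 3, HuH7 6 and 3, and PLC/PRF/5 2 and 2, with medians of -0.99, -0.03, 0.01 and -0.003. Of all genes 25.1%, 52%, 43.4% and 17.5% were called in either direction, in that order of lines. In HepG2 the smallest p were those of the adhesion molecule L1CAM (2.95 CPM in tumours and 113 CPM in cultures), the receptor AXL (6.58 and 86.7) and the protease MMP2 (0.867 and 6.82). In HuH7, where CDH2 rose, the matrix protein SPARC had 401 ± 118 CPM in tumours and 8.42 ± 0.75 CPM in cultures (log2 5.38 ± 0.43, limma, adjusted p = 5.4e-10). SPARC did not follow CDH2 across lines. It also rose in Hep3B (log2 2.78, limma, adjusted p = 1.14e-05) and PLC/PRF/5 (1.69, adjusted p = 0.00671), where CDH2 fell. In HepG2 SPARC was not called (-0.18, adjusted p = 0.818). A second cadherin, CDH6 (K-cadherin), had 240 ± 72.2 CPM in HuH7 tumours and 14.0 ± 0.69 CPM in cultures (log2 3.95 ± 0.32, adjusted p = 9.55e-10), whereas in Hep3B, where CDH2 fell, it had 14.0 ± 5.49 CPM in tumours and 73.0 ± 2.78 CPM in cultures (log2 -2.39 ± 0.32, adjusted p = 2.03e-06). The fibroblast markers given beside CDH2 were split in HuH7, where 3 of the 6 tested were higher in tumours and 1 was lower. PDGFRA and COL1A1 were higher and LUM was lower. Fibroblasts are rich in SPARC, those of the host would be chick cells, and the part of the markers in these values was not tested.

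Of receptors for fibronectin and proteases that cut cadherins or EpCAM, 7 of 8 could be tested. None rose, and HepG2 had 5 that fell, Hep3B 6, HuH7 3 and PLC/PRF/5 0, beside 13%, 27.4%, 19.8% and 5.61% of all genes lower in these lines. ITGB1, the shared integrin beta chain of fibronectin receptors, had 63.7 CPM in HepG2 tumours and 263 CPM in cultures, where FN1 itself fell, and 44.2 CPM in Hep3B tumours and 423 CPM in cultures (limma, adjusted p of 0.0131 and 0.00017). ADAM10, the protease that sheds E-cadherin and N-cadherin, had 73.4 CPM in Hep3B tumours and 235 CPM in cultures. With DESeq2 size factors 1 of the 7 rose in HuH7, and without the libraries numbered 3, 1 rose and 2 fell in HuH7 and 3 fell in PLC/PRF/5.

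Among 13 tested of 16 other transcription factors tied to the switch, those called were split. HepG2 had 1 higher and 4 lower, Hep3B 3 and 5, HuH7 5 and 2, and PLC/PRF/5 4 and 3, beside 25.1%, 52%, 43.4% and 17.5% of all genes called in either direction. ID1 and ID3, inhibitors of helix-loop-helix factors and targets of BMP signalling, fell in all 4 lines. ID2, of the same family, did not: it fell in Hep3B (log2 -1.61, limma, adjusted p = 6.19e-06) and rose in PLC/PRF/5 (1.05, adjusted p = 0.00254). In HepG2 and HuH7 ID2 was not called. ID1 had 71.4 ± 12.4 CPM in HepG2 tumours and 305 ± 31.4 CPM in cultures, and 53.8 ± 23.5 CPM in Hep3B tumours and 308 ± 25.2 CPM in cultures. SOX9, a factor of biliary and progenitor cells, rose in all 4, with 615 ± 135 CPM in Hep3B tumours and 193 ± 3.86 CPM in cultures (log2 1.64 ± 0.35; limma, adjusted p = 0.000529). Of 10 tested of 11 genes for TGF-beta and HGF signalling, which induce the switch, HepG2 had 0 that rose and 3 that fell, Hep3B 3 and 3, HuH7 2 and 1, and PLC/PRF/5 1 and 1, against the same shares of all genes. TGFB1 had 123 ± 26.3 CPM in HepG2 tumours and 453 ± 51.1 CPM in cultures (log2 -1.89 ± 0.27; limma, adjusted p = 7.61e-06). In Hep3B its level was 732 ± 138 CPM in tumours and 414 ± 18.4 CPM in cultures, a rise by TMM scaling (0.80, adjusted p = 0.0155) that total reads alone turned to -0.18 (adjusted p = 0.631). With that scaling 0 of the 10 rose and 6 fell in Hep3B, and without the libraries numbered 3, 5 rose and 2 fell in HuH7.

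**Figure D4:**
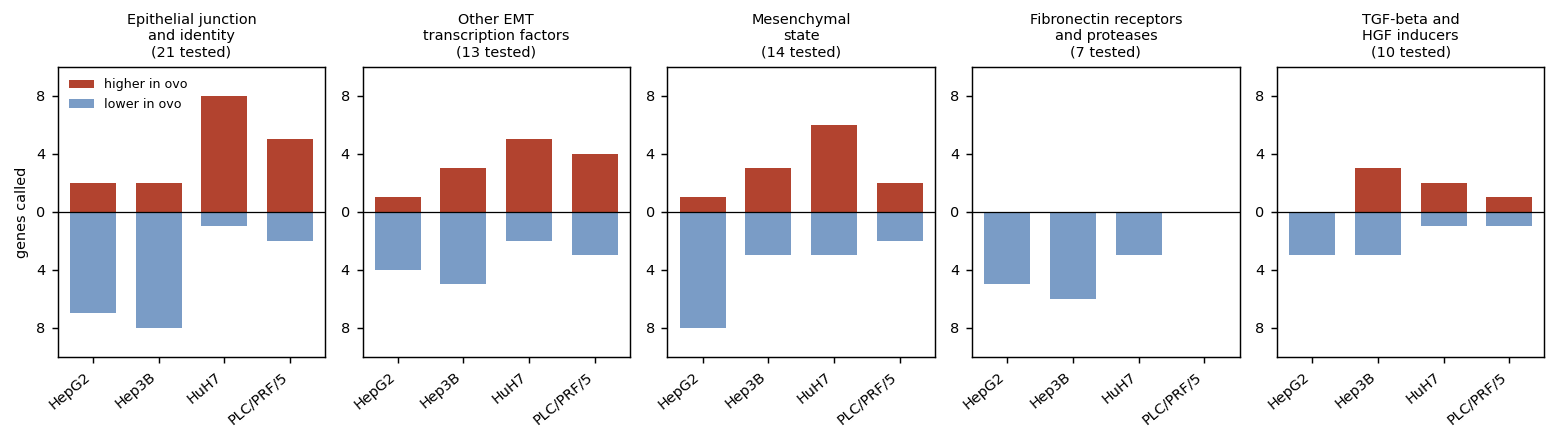
Number of genes called higher (above 0) and lower (below 0) in ovo over in vitro in each line, for 5 lists of genes that work beside the switch genes, with the number tested in each title. Of the epithelial junction genes 8 rose in HuH7 and 8 fell in Hep3B, and none of the fibronectin receptors and proteases rose in any line.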

How the data were processed

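The members and the lists of genes were chosen with earlier results of these data known. Expression was read with a targeted amplicon kit (DriverMap) from 500 ng of total RNA, per the labels' protocols. The submitters' processing notes name build hg38; how reads were aligned and counted is not given in the sources used here. Though titled as counts, the deposited table holds a signal per amplicon, which the authors brought to a total of 500000 per library. Whole reads were recovered from the steps of the low values, and in no library were fewer than 99.9684% of values within 0.01 read of a whole number. 1 damaged cell, of KRT18, was restored from its column total. Reads were scaled by TMM (edgeR 4.0.16) over all amplicons, filtered by filterByExpr (at least 10 reads, by group) and tested on log2(CPM + 1) with limma 3.58.1 (trended variance, R 4.3.3) in a single model of 8 groups (20 residual degrees of freedom). P-values are two-sided and adjusted by Benjamini-Hochberg over the 13100 genes of a contrast. Alternatives were DESeq2 1.42.0 size factors, total reads alone, other filters and pseudocounts, edgeR's quasi-likelihood, DESeq2's Wald and limma-voom tests on recovered reads, each line alone, a replicate block, removal of amplicon GC and length trends, and libraries left out. Counts for the lists under other scalings and without the libraries numbered 3 were added after the data were seen. Named genes of a list are up to 3 per direction with the smallest p in the line or in the mean over lines. The test was tried on simulated data first.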

Additional observations from a re-analysis of the deposited data

Results flagged for a closer look

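The change from culture to tumour differed between the 4 lines for 7 of the 10 genes by limma's interaction test over all genes, with adjusted p of 2.54e-08 for CDH2, 3.93e-06 for SNAI2, 4.44e-05 for SNAI1, 0.00196 for FN1, 0.00221 for VIM, 0.0104 for ZEB1 and 0.0379 for EPCAM.

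In 4 of 39 groups of in ovo libraries examined, 1 tumour stood apart from the other 3 by Dixon's test, which chance does in about 1 group in 20 of continuous values. In 3 of the 4 the others were tied at 0, so that a single value above 0 met the criterion by construction and that rate does not hold. SNAI2 was at 2.96 CPM in HepG2 tumour 3, against 0.960 to 1.19 CPM in the other 3. TWIST1 was at 1.81 CPM (7 reads) in Hep3B tumour 3 and at 0 in the others. In that tumour the 95th percentile of olfactory receptor amplicons was 1.29 CPM, the highest of the Hep3B tumours. ZEB2 was at 0.16 CPM in HepG2 tumour 2 and at 0.252 CPM in Hep3B tumour 2, 1 read each, and at 0 in the others. HepG2 tumour 3 and Hep3B tumour 3 are among the libraries left out in an alternative.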

How the results depend on the processing

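Of the 16 calls of a gene in a line, 8 held under every alternative run, among them the 3 calls of CDH2, FN1 in HepG2, EPCAM and SNAI2 in Hep3B, and SNAI1 in HuH7 and PLC/PRF/5. 1 call reversed, that of ZEB1 in Hep3B (-0.10 with total reads alone). The cause of the other losses was not tested. Genes at fewer than about 10 reads per library are limited by depth.

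Reversals of values that were not called follow, as log2 fold changes. With total reads alone they were CDH1 at -0.73 and FN1 at -0.62 in Hep3B. In HuH7, FN1 and EPCAM were at 0.022 and 0.0068 with DESeq2 size factors, 0.091 and 0.15 with edgeR's test, and 0.091 and 0.15 with DESeq2's Wald test. With GC and length trends removed, ZEB1 was at 0.025 in HepG2, CDH1, ZEB1 and EPCAM were at 0.66 (now called), 0.29 and 0.068 in HuH7, and ZEB2 was at 0.17 in PLC/PRF/5. Without the in ovo libraries numbered 3, EPCAM was at 0.068 in HepG2, CDH1, ZEB1, FN1 and EPCAM were at 0.11, 0.062, 0.31 and 0.40 in HuH7, and ZEB2 was at 0.094 in PLC/PRF/5. Leaving out each library in turn gave -0.048 to 0.60 for CDH1 in Hep3B, -0.23 to 0.12 for CDH1 in HuH7, -0.0085 to 0.41 for CDH2 in HepG2, -0.67 to 0.015 for EPCAM in HepG2, -0.25 to 0.41 for EPCAM in HuH7, -0.14 to 0.32 for FN1 in HuH7, -0.33 to 0.072 for ZEB1 in HuH7 and -0.26 to 0.092 for ZEB2 in PLC/PRF/5. The log2 ratio of VIM to EPCAM in Hep3B tumours minus cultures was 0.18 with 1 CPM added, -0.53 with 0.25 CPM and 0.85 with 5 CPM.

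The genes called of 10 in PLC/PRF/5, 4 in the report, were 2 with DESeq2 size factors, 0.25 CPM added, edgeR's test or GC and length trends removed, and 2 to 4 when libraries were left out in turn. In HepG2 they were 1 with 5 CPM added and 4 with the trends removed. In the mean over lines they were 7 without the libraries numbered 3 and 8 with the trends removed. Over all genes, each line fitted alone called 3733 in HuH7 (5688 in the report) and 3723 in PLC/PRF/5 (2292), the set without libraries numbered 3 called 3822 in PLC/PRF/5, and leaving out single libraries gave 1431 to 2841 there, the lowest without PLC/PRF/5 in vitro replicate 2. Total reads alone called 1205 higher and 6820 lower in Hep3B, against 3220 and 3594 by TMM, 1199 and 2080 in HepG2 (1588 and 1697) and 2528 and 3041 in HuH7 (3095 and 2593). DESeq2 size factors called 1174 higher and 1049 lower in PLC/PRF/5 (1557 and 735).

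VIM in HuH7 lost its call in 22 of 28 sets with a library left out, SNAI2 in PLC/PRF/5 in 16 and TWIST1 there in 2. The main test used no pairing. Deviations of same-numbered libraries correlated at -0.095 to 0.457, and so few libraries per line cannot decide whether the replicate numbers pair the samples. With the replicate block, SNAI1 in HepG2 passed (-0.62, adjusted p = 0.0419), VIM in HuH7 (0.45, adjusted p = 0.191) and SNAI2 in PLC/PRF/5 (0.67, adjusted p = 0.128) were lost, and no other call of the 10 genes changed.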
